A study of Mus musculus with 9 samples.

Results

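The differentially methylated regions (DMRs) described here are the widest ones on the autosomes, those that span 1500 bp or more. They were chosen by width alone and number 582 of 12845 autosomal DMRs (4.53%), or of 12949 DMRs on all chromosomes. Another 7 wide DMRs on chromosomes X and Y were left out.

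Methylated DNA immunoprecipitation (meDIP) was sequenced from the hypothalamus of male C57/Bl6 mice on postnatal day 6. In modified maternal separation (MMS) some pups of a litter spent 1.5 h of each day away from their dam, starting on postnatal day 4 and ending on day 6, and were turned onto their backs each time they righted themselves. Control pups were littermates that did not undergo this. Each group had 3 libraries made from pools of 10 males in all, so the animals within a pool cannot be told apart, and 2 inputs and 1 IgG library served as controls of the method. The table gives 1 mean per group and region and no library values or library depths, so no replicate error or test accompanies any value below.

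DNA methylation in mammals sits mostly on cytosines that are followed by guanine (CpG sites). Most of the genome is poor in CpG and methylated, whereas CpG islands at many promoters are dense in CpG and little methylated. In meDIP an antibody against methylated cytosine pulls down fragments, so more methylation or more CpG sites in a stretch of DNA give more reads. A wide region collects more reads than a narrow one and has more room to touch an exon or a promoter, so levels are compared below as normalised reads per kb, while group means are on the log2 scale of normalised reads over the whole region.

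The sequences show how different the wide DMRs are. For the widest, the densest in CpG and the region with the largest excess in control among those whose lower group lay above its lowest value, the 200 bp window with the most CpG outside untranslated regions is given, and for the region with the fewest CpG its first window with the fewest. All are from the plus strand of GRCm38 (mm10), 5′ to 3′, with CpG sites in capitals.
Widest, Tmem267 intron, chr13:119597503-119597702: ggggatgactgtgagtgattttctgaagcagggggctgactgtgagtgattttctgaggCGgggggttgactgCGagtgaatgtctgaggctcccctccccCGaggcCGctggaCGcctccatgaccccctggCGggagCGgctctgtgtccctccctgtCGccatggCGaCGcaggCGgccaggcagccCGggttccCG
Densest in CpG, Bicra, chr7:15972161-15972360: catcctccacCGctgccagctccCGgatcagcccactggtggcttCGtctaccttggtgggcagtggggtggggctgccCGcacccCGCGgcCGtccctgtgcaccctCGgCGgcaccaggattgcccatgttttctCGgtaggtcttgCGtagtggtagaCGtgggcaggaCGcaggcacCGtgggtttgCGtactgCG
Largest excess in control, Tiam1 intron, chr16:90056482-90056681: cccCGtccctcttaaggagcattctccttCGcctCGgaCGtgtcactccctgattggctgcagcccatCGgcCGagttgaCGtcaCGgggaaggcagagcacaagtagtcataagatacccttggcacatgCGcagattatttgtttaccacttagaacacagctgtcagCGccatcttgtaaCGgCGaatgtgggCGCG
Fewest CpG, near 2010315B03Rik, chr9:124256285-124256484: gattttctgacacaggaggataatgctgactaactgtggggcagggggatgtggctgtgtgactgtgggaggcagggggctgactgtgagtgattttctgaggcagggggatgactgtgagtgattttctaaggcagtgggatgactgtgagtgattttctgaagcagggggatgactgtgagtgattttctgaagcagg
These windows hold 13, 16, 14 and 0 CpG sites in that order. The window in Bicra, which encodes a subunit of a SWI/SNF chromatin remodelling complex, lies in a coding exon. The window with no CpG reads as repeated copies of a short unit, which is described with the arrays below.

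The width limit was round, and the regions around it differed little in width. Just inside were a pair of 1500 bp regions in introns of Noc3l (1.68 in control, 4.28 in MMS) and Rftn1 (2.24 and 4.81) and a 1501 bp region at the end of Sfxn1 (5.27 and 3.95). Just outside were regions of 1499 bp at the Cttnbp2 promoter (6.17 and 5.30), 1498 bp in an exon of Gm10856 (4.98 and 3.51) and 1497 bp in an intron of Camk2b (3.58 and 1.20). The narrowest wide DMR had 1500 bp and the widest 7562 bp, with a median width of 1799 bp and quartiles of 1611 and 2100 bp. Between 1500 and 1999 bp there were 390, between 2000 and 2999 bp 169, and at 3000 bp or more 23. Together they covered 1144085 bp.

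Of the 582 wide DMRs, 319 were higher in MMS and 263 were higher in control. The share higher in MMS was 54.8%, and over all autosomal DMRs it was 62.4%. By width it was 56.4% from 1500 to 1999 bp, 50.3% from 2000 to 2999 bp and 60.9% among the 23 regions of 3000 bp or more. Narrower DMRs had shares of 65.5% under 500 bp, 61.0% from 500 to 999 bp and 57.0% from 1000 to 1499 bp. The share was thus lower in each wider band up to 2999 bp. It was higher again in the widest regions, where it rests on only 14 of 23. Of these 23, 7 were the tandem arrays described below, and their part in the share was not tested.

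Differences between the groups were of moderate size. Group means were 2 or more apart on the log2 scale in 225 wide DMRs (38.7%), against 69.7% of all autosomal DMRs. Of these 225, 206 were higher in MMS (91.6%) and 19 in control, and of all autosomal DMRs that far apart 80.5% were higher in MMS. The median difference, MMS minus control, was 2.66 in wide DMRs higher in MMS, with quartiles of 1.60 and 3.96, and -1.12 in wide DMRs higher in control, with quartiles of -1.39 and -0.96. Over all autosomal DMRs these medians were 3.43 and -1.73. Every region in the table had passed the authors' own threshold, and the part of read number in these sizes was not tested.

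The lower group lay near its lowest value in a smaller share of the wide regions. The lowest group mean in the table was -0.17 for control and -0.24 for MMS. Control lay within 0.5 of its lowest value in 90 of the 319 wide DMRs higher in MMS (28.2%), against 52.6% of all autosomal DMRs higher in MMS. MMS did so in 3 of the 263 wide DMRs higher in control (1.14%), against 4.61%. These means count reads over the whole region, so a wider region has more room to lie above the lowest value. For control the share fell with width, from 60.2% under 500 bp to 21.4% at 3000 bp or more. A difference against a group at its lowest value depends on where that value was set, and without those regions the median difference of the other 229 wide DMRs higher in MMS was 2.02, against 2.57 over all autosomal DMRs.

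Both groups had a mean of at least 16 normalised reads (4 on the log2 scale) in 300 wide DMRs (51.5%) and in 12.9% of all autosomal DMRs. Of these 300, 76 were higher in MMS (25.3%), and of all such autosomal DMRs 14.1% were. This limit uses the means that also give the direction, and it leaves out every region with control near its lowest value, all of which were higher in MMS. It counts reads over the whole region, which gives a wider region more room to pass, so neither share is read as a difference in direction.

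Levels per length were compared with both directions together and then within each. Together, wide DMRs had a lower median than all autosomal DMRs in the higher group and a higher one in the lower group. The higher group had a median of 26.0 normalised reads per kb in wide DMRs and 45.0 in all autosomal DMRs, while the lower group had 8.90 and 6.04. Wide DMRs higher in MMS had a median of 18.9 reads per kb in MMS and 2.44 in control. Wide DMRs higher in control had 33.5 reads per kb in control and 15.1 in MMS, so this second set had the higher median in control and the lower one in MMS.

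**Figure D1:**
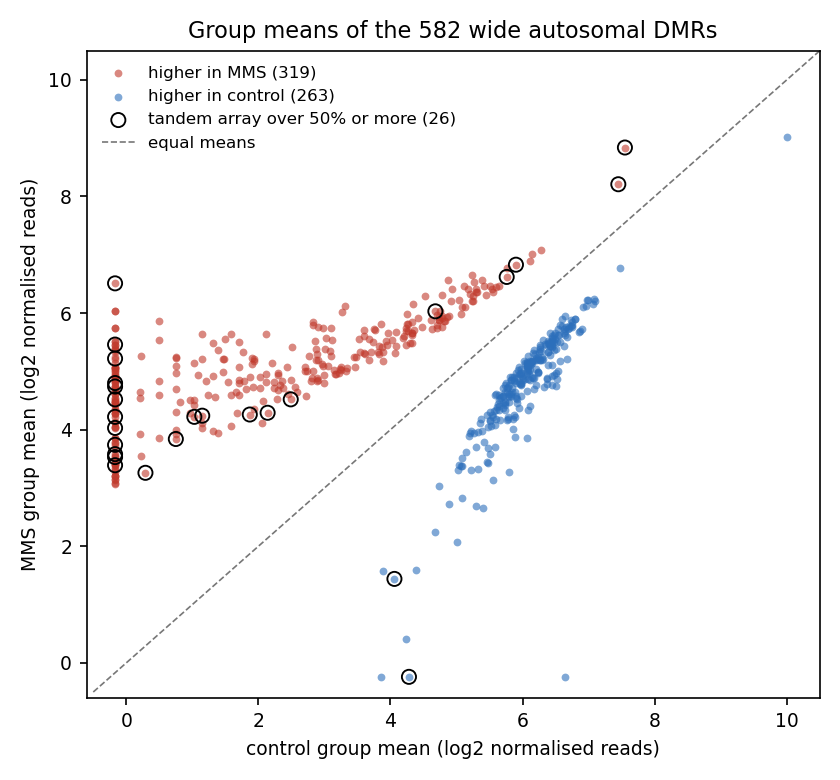
Each point is 1 of the 582 wide autosomal DMRs, with its control mean on the x axis and its MMS mean on the y axis, both in log2 normalised reads. The column of red points at the left edge is the set whose control mean is -0.17, the blue points lie in a narrower band under the line of equal means, and open circles mark the 26 tandem arrays, 24 of them above the line.

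**Figure D2:**
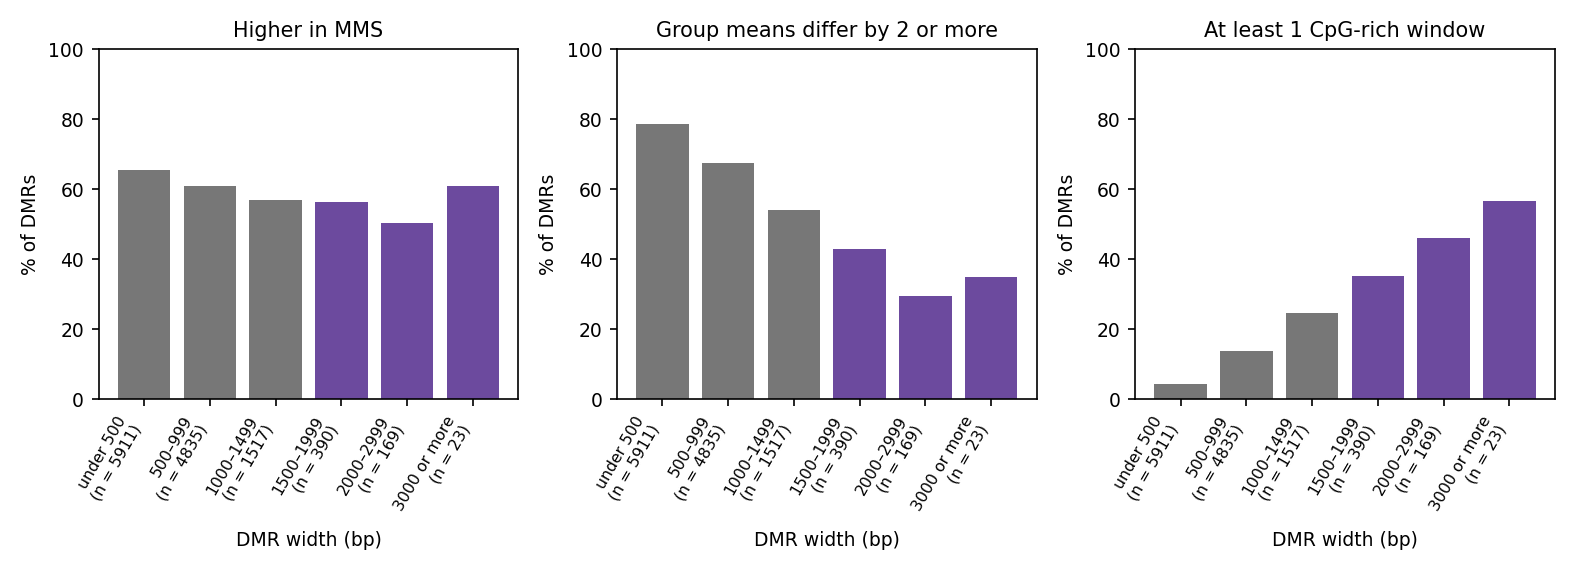
Bars show the share of autosomal DMRs in each band of width that had the higher mean in MMS (left), that differed by 2 or more on the log2 scale (middle) and that held at least 1 CpG-rich window of 200 bp (right), with wide DMRs in purple, narrower ones in grey and the number of regions under each bar. The share with a CpG-rich window rises from 4.30% under 500 bp to 56.5% at 3000 bp or more, as the room for such a window grows too.

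The 10 widest regions were a mixed set. The widest, 7562 bp in an intron of Tmem267, a gene for a transmembrane protein (chr13:119595514-119603075), stood at 7.55 in control and 8.84 in MMS. It carried 77 CpG sites, 1.02 per 100 bp, and 60.6 reads per kb in MMS. Next came 6396 bp in the noncoding gene AI506816 (chr5:23701864-23708259, 0.75 and 4.70), which held 227 CpG sites, the most of any DMR on the autosomes. This second region was read thinly, with 4.06 reads per kb in MMS, and its whole length aligned elsewhere in the reference at 95% identity or more, with 9 alignments of at least 100 bp.

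After these came 4942 bp at chr8:122836149-122841090 (6.28 and 7.09), in an intron of Gm20388, a readthrough model that GENCODE draws over 4435 kb and that RefSeq does not hold under this name. The nearest start of a protein-coding gene was that of Cdh15, a cadherin, 9347 bp away. A 4689 bp region at the start of chromosome 9 (chr9:3000122-3004810) stood at -0.17 in control and 5.22 in MMS. An intergenic 4645 bp region on chromosome 14 (chr14:106000828-106005472) had 1.31 in control and 4.92 in MMS, and a 4304 bp region 131500 bp from the start of Prox1, a homeobox transcription factor, had 2.49 and 4.52.

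Of the remaining 4, 3 were higher in control and overlapped coding exons. They were in Gfra2, which encodes a receptor subunit for neurturin (4169 bp, 6.91 in control and 6.10 in MMS), in Cmtm6, which encodes a membrane protein that keeps PD-L1 at the cell surface (4039 bp, 6.75 and 5.79), and in Kctd10, an adaptor of cullin-3 ligases (3914 bp, 6.28 and 5.35). The Kctd10 region reached into the promoter and had 1149 bp in CpG-rich windows. The remaining one, 3915 bp in an intron of the phospholipid flippase gene Atp8a2, was at -0.17 in control and 3.39 in MMS, which was 2.68 reads per kb, the lowest level of any higher group among all autosomal DMRs. The wide DMRs higher in control were at most 4169 bp wide, and those higher in MMS at most 7562 bp.

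Among wide DMRs whose lower group lay above its lowest value, several had a mean far higher in MMS. A region beside the 3′ end of Zbtb16 on chromosome 9 had 0.50 in control and 5.53 in MMS, followed by an intron of C1rb, a complement protease gene (1.15 and 5.64), a second region near Prox1, 67903 bp from its start (0.75 and 5.24), and one 2084 bp from the start of Mobp, a myelin gene (0.75 and 5.23). The largest excesses in control were smaller. In an intron of Tiam1, which encodes an activator of the GTPase Rac, the difference was -3.82 (chr16:90055508-90057158, 4.23 in control and 0.41 in MMS). Introns of Chd9, a chromatin remodeller (5.00 and 2.08), Laptm4a, a lysosomal membrane protein (5.40 and 2.66), and Afg1l, a mitochondrial ATPase (4.06 and 1.44), and an intergenic region on chromosome 3 (4.39 and 1.60) followed, with differences from -2.92 to -2.62. The Tiam1, Afg1l and chromosome 3 regions were repeats over 70.4%, 91.9% and 97.3% of their length and aligned elsewhere over 52.5%, 87.1% and 87.7% of it.

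The 3 wide DMRs with MMS at its lowest value were picked out after their values were seen. They lay between genes at chr13:3372335-3374324 (6.65 in control and -0.24 in MMS), in an intron of Bzw2 (4.28 and -0.24) and in the 3′ UTR of Adarb2, a brain gene of the RNA-editing deaminase family (3.86 and -0.24).

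The highest means fell in unlike places. At chr11:3192187-3193782, over an antisense RNA gene and the promoter of Sfi1, which encodes a centrosome protein, the mean was 10.01 in control and 9.02 in MMS, or 646.1 reads per kb in control, the most of any wide DMR. Introns of Dcun1d4 (7.47 and 6.77) and of Lcp1, an actin-bundling protein (7.10 and 6.20), were the next highest among those higher in control. Among those higher in MMS the highest were the Tmem267 region, an intergenic region of chromosome 9 (7.45 and 8.21) and the Gm20388 region.

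CpG content varied widely among the wide DMRs. They held 2 to 227 CpG sites each, with a median of 27, and 1.49 CpG per 100 bp against 1.32 in all autosomal DMRs. Their GC content of 47.9% and their observed-to-expected CpG ratio of 0.259 lay near the values of all autosomal DMRs, 47.4% and 0.253. At least 1 window of 200 bp with a GC content of 50% or more and a CpG ratio of 0.6 or more was present in 228 wide DMRs (39.2%) and in 11.8% of all. Of these 228, 113 were higher in MMS (49.6%), against 55.0% of all autosomal DMRs with such a window. CpG-rich windows covered 1000 bp or more in 15 wide DMRs, 8 of them higher in MMS. Among all autosomal DMRs there were 16, 9 of them higher in MMS. A region under 1000 bp cannot reach this limit, so the count follows largely from width.

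CpG density was 1.42 per 100 bp at the median of wide DMRs higher in MMS and 1.57 in those higher in control. Cut into 3 equal classes by CpG density, the wide DMRs of the poorest class (up to 1.25 CpG per 100 bp) were higher in MMS in 128 of 194 cases (66.0%), those of the middle class in 95 of 194 (49.0%) and those of the densest class, from 1.72, in 96 of 194 (49.5%). With the same limits these shares were 67.3%, 58.3% and 58.1% over all autosomal DMRs. At the poor end, all 19 wide DMRs with under 0.5 CpG per 100 bp were higher in MMS, where 73.1% of the 1117 autosomal DMRs below that limit were. Tandem arrays made up 9 of these 19. The classes and this limit were chosen after the values were seen.

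**Figure D3:**
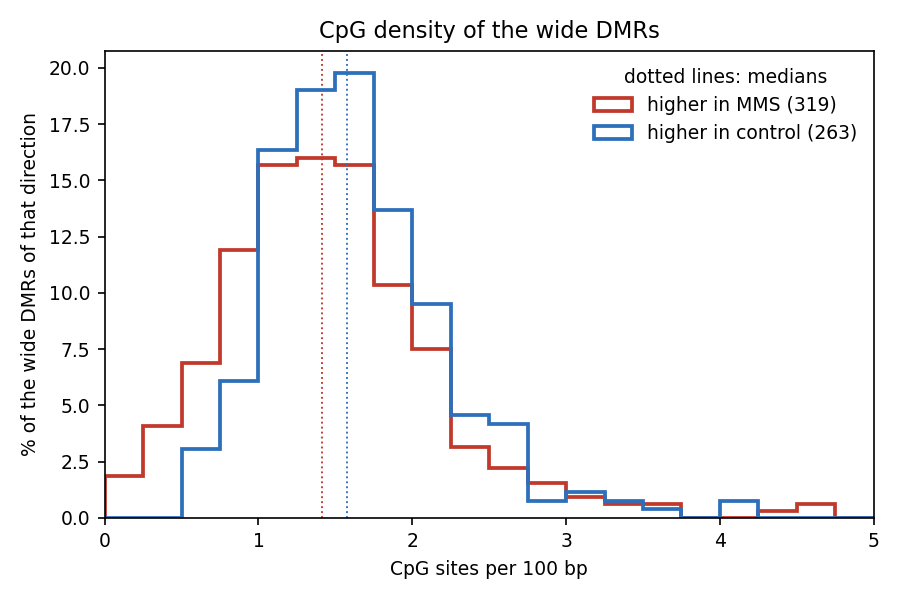
Lines give the share of wide DMRs in steps of 0.25 CpG sites per 100 bp (x axis), separately for the 319 higher in MMS and the 263 higher in control, with dotted lines at the medians of 1.42 and 1.57. Both sets peak between 1 and 2, and below 0.5 there are regions higher in MMS and none higher in control.

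The densest in CpG was the region in Bicra (chr7:15970878-15972932), with 96 sites in 2055 bp, 4.67 per 100 bp, and means of 4.75 in control and 6.03 in MMS. GENCODE places its centre at the promoter of the noncoding gene Gm38948. A repeat-rich region at the pseudogene Gm8810 (4.53 per 100 bp, -0.17 and 3.09) and an intergenic one on chromosome 5 (4.27 per 100 bp, -0.17 and 4.05) followed, and both had copies elsewhere over 92.6% and 89.6% of their length. The Sfi1 region had 4.20 and the Bzw2 region 4.02 CpG per 100 bp. The regions with the fewest CpG were the intergenic one on chromosome 9 with 2 sites in 1733 bp, the one near Prox1 with 5 in 4304 bp and one in Cfap77, a cilium gene, with 2 in 1602 bp (-0.17 in control and 4.69 in MMS), which lay outside the RefSeq span of that gene. The first of these was read at 170.9 reads per kb in MMS in spite of its 2 CpG sites.

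By the position of their centres, 273 wide DMRs were in introns (46.9%), 209 in intergenic DNA (35.9%), 34 at transcription ends (5.84%), 32 at promoters (5.50%), 26 in exons (4.47%), 8 in 3′ UTRs (1.37%) and 0 in 5′ UTRs. All autosomal DMRs had 45.8% in introns, 41.1% in intergenic DNA, 4.55% at transcription ends, 4.10% at promoters, 3.30% in exons and 1.14% in 3′ UTRs. Higher in MMS were 68.8% at promoters (22 of 32), 57.4% in intergenic DNA (120 of 209) and 52.0% in introns (142 of 273), and 13 of 26 in exons. Over all autosomal DMRs these shares were 64.7%, 63.3%, 62.1% and 59.2% in the same order. Of the wide DMRs, 319 touched the body of a protein-coding gene (54.8%), against 49.5% of all. These touched 322 protein-coding genes, 296 of which they also touched in RefSeq. A coding exon was overlapped by 143 wide DMRs (24.6%) against 8.98% of all, and a protein-coding promoter by 49 (8.42%) against 4.13%, which a greater width alone makes more likely.

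Among promoter regions the 5 densest in CpG included 3 at protein-coding genes. The promoter of Cit, which encodes citron kinase of dividing cells and neurons, was higher in control (6.06, against 4.67 in MMS, 2.94 CpG per 100 bp). That of Fscn1, the actin-bundling protein fascin, was higher in MMS (1.71 in control and 5.08 in MMS, 2.75 CpG per 100 bp), as was that of Nfkbiz, a nuclear regulator of NF-kB targets (4.78 and 5.76, 2.64 CpG per 100 bp).

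The widest regions centred on exons of protein-coding genes were those of Suds3, a subunit of the Sin3 corepressor (3206 bp, 6.55 in control and 5.63 in MMS), and of Iffo2, an intermediate filament family gene (2799 bp, 6.99 and 6.23). Trim46, which organises microtubules of the proximal axon, had a 2513 bp region that was also higher in control (6.60 and 5.89). Myadm, a membrane protein gene (4.70 and 5.96), Ehbp1l1 (4.26 and 5.82) and the satellite region over Gm17535 (-0.17 and 6.51) were higher in MMS.

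In 3′ UTRs, regions at Tob2, an antiproliferative gene (4.23 in control and 5.74 in MMS), and Nfic, a transcription factor of the nuclear factor I family (1.46 and 4.99), were higher in MMS. Regions at Zfp652, a zinc finger gene (6.45 and 5.42), Fto, an RNA demethylase linked to body weight (6.56 and 5.17), Sept11, a septin (6.52 and 4.87), and Zbtb16, a zinc finger transcription factor (5.90 and 4.55), were higher in control. The Zfp652 region lay outside the RefSeq span of its gene. Of all 8 wide DMRs in 3′ UTRs 3 were higher in MMS, and of all autosomal DMRs there 57.8% were.

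Some of the wide DMRs consisted of tandem arrays. A tandem array repeats the same unit head to tail, and in 26 wide DMRs (4.47%) at least 50% of the bases lay in windows of 100 bp that matched the sequence 1 unit further on at 80% or more, with units of 10 to 300 bp. This limit was set after the values were seen. Among all autosomal DMRs 1.43% were such arrays, and by width 2.82% of regions from 1500 to 1999 bp, 4.73% from 2000 to 2999 bp and 30.4% (7 of 23) at 3000 bp or more. Of the 26, 24 were higher in MMS, and control was at its lowest value in 13 of these 24. Of all 184 arrays among autosomal DMRs, 72.8% were higher in MMS. Reads of an array can fall on any of its units, and repeat copies missing from the reference can add reads to those present, and the part of either in these means was not tested.

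The shortest unit was 16 bp long and the median unit 46.5 bp. Consecutive units of 5 arrays are shown, chosen after their values were seen to show units with and without CpG, from the plus strand of GRCm38 with CpG in capitals.
Near Prox1, unit 1, chr1:190302146-190302195: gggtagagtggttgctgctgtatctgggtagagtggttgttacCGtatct
Near Prox1, unit 2, chr1:190302196-190302245: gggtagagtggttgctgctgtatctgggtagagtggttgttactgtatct
Near Prox1, unit 3, chr1:190302246-190302295: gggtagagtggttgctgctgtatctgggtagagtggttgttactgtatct
Bzw2 intron, unit 1, chr12:36105124-36105197: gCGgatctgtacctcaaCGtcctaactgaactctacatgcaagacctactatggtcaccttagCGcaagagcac
Bzw2 intron, unit 2, chr12:36105198-36105271: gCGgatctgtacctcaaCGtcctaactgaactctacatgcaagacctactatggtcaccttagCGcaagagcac
Bzw2 intron, unit 3, chr12:36105272-36105345: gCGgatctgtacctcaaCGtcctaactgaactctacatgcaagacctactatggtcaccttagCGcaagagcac
Atp8a2 intron, unit 1, chr14:59991754-59991777: gtgggcaggctcagcttaggatct
Atp8a2 intron, unit 2, chr14:59991778-59991801: gtgggcaggctcagcttaggatct
Atp8a2 intron, unit 3, chr14:59991802-59991825: gtgggcaggctcagcttaggatct
Uxs1 intron, unit 1, chr1:43777772-43777832: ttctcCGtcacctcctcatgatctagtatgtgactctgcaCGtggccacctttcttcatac
Uxs1 intron, unit 2, chr1:43777833-43777893: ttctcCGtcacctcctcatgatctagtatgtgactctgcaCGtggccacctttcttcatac
Uxs1 intron, unit 3, chr1:43777894-43777954: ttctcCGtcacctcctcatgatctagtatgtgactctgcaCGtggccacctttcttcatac
Slc6a17 intron, unit 1, chr3:107478265-107478292: aggtgaggcagtgcaggtgggatagtgc
Slc6a17 intron, unit 2, chr3:107478293-107478320: aggtgaggcagtgcaggtgggatagtgc
Slc6a17 intron, unit 3, chr3:107478321-107478348: aggtgaggcagtgcaggtgggatagtgc
The 3 units in Bzw2, Atp8a2, Uxs1 and Slc6a17 were identical to each other, and units 2 and 3 near Prox1 differed from unit 1 at 1 of 50 bases. In Bzw2 each unit shown carried 3 CpG sites, and this was the array with the largest excess in control, 4.28 in control and -0.24 in MMS. The Uxs1 array, in a gene for UDP-xylose synthesis, had 2 CpG in each unit shown and went the other way (1.15 in control and 4.24 in MMS). The units shown of Atp8a2 and of the vesicular transporter gene Slc6a17 held no CpG, although the whole regions held 32 and 11 CpG sites. Both regions had control at -0.17, with 3.39 and 4.74 in MMS. Units with and without CpG were thus both found among arrays higher in MMS. The 2 arrays higher in control, in Bzw2 and Afg1l, had 4.02 and 3.65 CpG per 100 bp, more than any of the other 24.

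Wide DMRs at the start of the assembled chromosome 9 had a unit as long as that of the mouse major satellite, which fills the heterochromatin around centromeres. There were 4, from 1890 to 4689 bp wide, over the predicted genes Gm11168, Gm10717 and Gm17535. All 4 had control exactly at -0.17, and in MMS 5.22, 3.58, 3.74 and 6.51 in order along the chromosome. Units from the Gm10717 region read as follows, with CpG in capitals.
Gm10717, unit 1, chr9:3027513-3027746: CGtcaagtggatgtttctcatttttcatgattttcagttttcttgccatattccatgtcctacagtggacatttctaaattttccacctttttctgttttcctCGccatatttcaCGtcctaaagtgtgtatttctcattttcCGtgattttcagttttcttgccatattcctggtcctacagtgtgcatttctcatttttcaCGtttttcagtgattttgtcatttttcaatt
Gm10717, unit 2, chr9:3027747-3027980: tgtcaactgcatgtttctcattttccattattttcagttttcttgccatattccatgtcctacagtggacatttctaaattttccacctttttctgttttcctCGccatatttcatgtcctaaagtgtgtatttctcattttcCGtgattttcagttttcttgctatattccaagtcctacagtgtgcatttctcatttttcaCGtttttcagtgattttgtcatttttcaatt
Gm10717, unit 3, chr9:3027981-3028214: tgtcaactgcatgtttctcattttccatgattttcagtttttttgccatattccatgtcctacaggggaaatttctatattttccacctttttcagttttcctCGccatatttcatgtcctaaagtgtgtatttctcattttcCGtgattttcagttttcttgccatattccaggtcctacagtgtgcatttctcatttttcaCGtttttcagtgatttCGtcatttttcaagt
They held 5, 3 and 4 CpG sites, and units 2 and 3 differed from unit 1 at 9 and 13 bases. The last region, with 6.51, had the largest difference of all wide DMRs higher in MMS (6.68). Control at -0.17 near a chromosome start was not limited to chromosome 9. Arrays with a unit of 59 bp near the start of chromosomes 4 and 11 had it too, with 4.80 and 5.46 in MMS. Satellite arrays are far longer in the genome than in the assembly, and the part of copies outside it in these means was not tested.

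A pair of arrays shared their unit. The most frequent word of 20 letters in the widest DMR, tgattttctgaggcaggggg, occurred 69 times in the Tmem267 region on chromosome 13 and 19 times in the intergenic region on chromosome 9 (chr9:124256285-124258017), on the plus strand in both. On either strand it occurred in no other autosomal DMR, so 2 DMRs (0.0156%) held it. Among wide DMRs higher in MMS this pair also had the highest means in MMS, 8.84 and 8.21, and their differences of 1.29 and 0.76 were alike in direction. The comparison was made after the values were seen, and reads from either array could fall on the other.

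**Figure D4:**
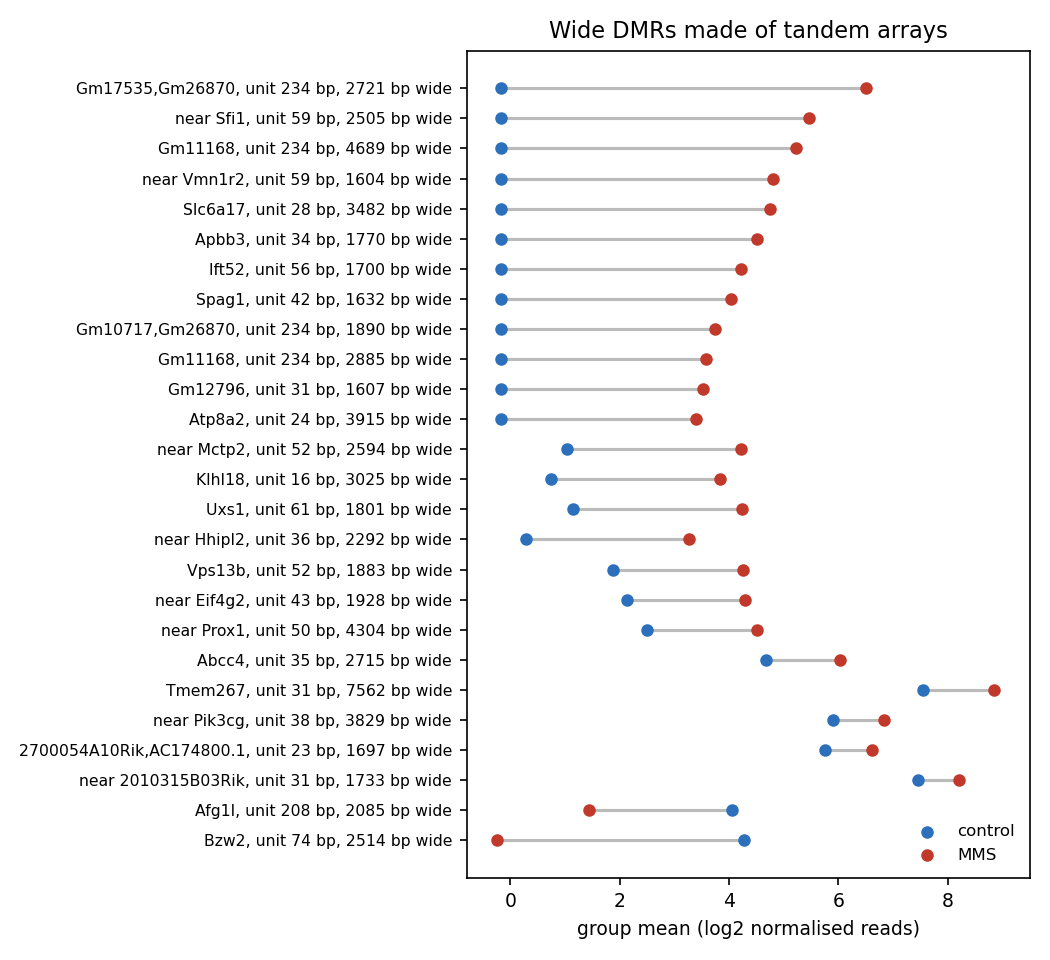
Each row is 1 of the 26 wide DMRs made of tandem arrays, named by the gene at its centre or the nearest protein-coding start, with the unit length and the width. Dots give the control (blue) and MMS (red) group means on a log2 axis of normalised reads, and 12 rows start at the lowest control value of -0.17.

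Copies elsewhere were looked for in the wide DMRs and not in narrower ones, so these counts have no share over all autosomal DMRs beside them. A single alignment of at least 95% identity covered 50% or more of the region in 22 wide DMRs (3.78%), and 542 (93.1%) had no alignment of 100 bp or more elsewhere. Of the 22, 14 were higher in MMS, and of all autosomal DMRs 62.4% were. Soft-masked repeats made up a median of 22.1% of a wide DMR and 20.6% of all autosomal DMRs. In 25 wide DMRs they made up 90% or more, and 23 of those 25 were higher in MMS, as were 339 of the 435 autosomal DMRs of any width with such a share of repeats.

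Protein-coding genes with more than 1 wide DMR numbered 10, and in 6 of them the regions went in opposite directions. Fto had a difference, MMS minus control, of 1.06 in an intron (5.30 in control and 6.36 in MMS) and of -1.39 in its 3′ UTR. Abcc4, a nucleotide transporter, had a difference of 1.35 in an array (4.68 and 6.03) and of -0.90 elsewhere (6.41 and 5.51). Crtac1, an extracellular matrix gene (4.24 and 5.70, 6.45 and 5.11), and Mbnl2, a splicing regulator (0.75 and 4.98, 5.38 and 3.98), were split in the same way. Zfhx3, a homeobox gene expressed in the suprachiasmatic nucleus, had 1.03 and 4.51 in one intron and 5.87 and 4.84 in another, the latter outside its RefSeq span. Gm20388 had 1 region higher in MMS and 2 in control. Both regions were higher in control in Alpk3, a muscle kinase gene (6.80 and 5.90, 5.48 and 3.68), and in Dnah8, an axonemal dynein gene (5.04 and 3.39, 6.17 and 4.88), and higher in MMS in Gm11168 and Fgfr2. The 2 regions of Fgfr2 (5.17 and 6.41, 2.12 and 5.64) lay in a GENCODE model of 2961 kb and outside the RefSeq gene of 104.4 kb, so they cannot be tied to that receptor gene by position.

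Wide DMRs were also counted in 15 gene lists chosen for this tissue. Over all 21924 protein-coding genes on the annotation, 322 had a wide DMR (1.47%) and 18.7% had any autosomal DMR, and the median difference of wide DMRs on them was 0.98. Between lists the share of genes with a wide DMR ran from 0% in nuclear and olfactory receptors to 8.89% in calcium and sodium channels. The share with any autosomal DMR ran from 1.28% in olfactory receptors to 65.0% in postsynaptic scaffolds. The part of gene length in these shares was not tested, and with 0 to 4 genes touched in each list, counts are given below.

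Of 26 glutamate receptor genes, 2 had a wide DMR. Both encode NMDA receptor subunits and both regions were in introns, with Grin2c at 5.44 in control and 6.31 in MMS and Grin2d at 6.60 and 5.77. Among 20 postsynaptic scaffold genes, Dlgap1 had one at a transcription end with 97 CpG sites in 3219 bp (6.71 and 5.78). Of 26 GABA and glycine receptor genes the GABA-A subunit gene Gabra4 had one (4.70 and 5.80), and of 45 synaptic adhesion genes the contactin gene Cntn5 (6.02 and 5.17).

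Calcium and sodium channels had 4 of 45 genes with a wide DMR, of which 3 are described here, each in an intron. Cacna1i, a T-type calcium channel gene (5.50 in control and 6.46 in MMS), and Scn8a, the sodium channel of axon initial segments (4.86 and 5.94), were higher in MMS. Cacna1d, an L-type calcium channel gene (5.79 and 4.77), was higher in control. Of 96 potassium channel genes 1 had a wide DMR, the inward rectifier Kcnj6 (5.13 and 6.11).

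Of 71 axon guidance genes, 4 had one. The netrin gene Ntn1 was at -0.17 in control and 4.50 in MMS, and the ephrin receptor gene Ephb3 at 1.93 and 4.36, while Ephb4 (5.65 and 4.51) and Slit3 (5.35 and 4.11) were higher in control. Of 100 cadherin and protocadherin genes, Cdh23 (1.15 and 5.22) and Cdh13 (2.12 and 4.82) had one, both higher in MMS.

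Genes of FGF, Wnt, BMP and Notch signalling had wide DMRs in 4 of 102 cases, and all 5 regions were higher in MMS, with a median difference of 2.17. Of the 319 wide DMRs on any protein-coding gene 168 were higher in MMS, and 2 of the 5 share the Fgfr2 model. They were in Notch3, a Notch receptor gene (3223 bp, 5.76 in control and 6.78 in MMS), in Smad7, an inhibitor of TGF-beta and BMP signals (-0.17 and 6.03), at a promoter that GENCODE gives to Fgfr1 (2.45 and 4.62) and in the long Fgfr2 model. The Fgfr1 region, like both of Fgfr2, lay outside the RefSeq span. With 3 of the 5 outside it, the Notch3 and Smad7 regions are those within genes in both annotations.

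Of the 195 genes listed by name as homeobox, Sox, Fox or T-box genes 4 had wide DMRs, in 5 regions of which 3 were higher in MMS. The list does not hold every homeobox gene and leaves out Prox1. A wide DMR of 2127 bp centred on an exon of Prox1 was higher in MMS (4.78 in control and 5.95 in MMS). Meis3, a homeobox gene, had one at a promoter (-0.17 in control and 4.04 in MMS), and Pou2f2, a POU factor, at a transcription end (0.75 and 5.10), while Foxo3, a forkhead factor of insulin signalling, had a 2572 bp region that was higher in control (5.81 and 4.90). Zfhx3 is described above.

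Of 90 DNA methylation and histone modifier genes, Kmt5a, a histone H4 methyltransferase, had a promoter region that was higher in MMS (3.95 in control and 5.45 in MMS), and the histone methyltransferase gene Setd1a (5.99 and 4.92) and Prdm10 (6.47 and 5.51) had intron regions that were higher in control. Of 64 imprinted genes, Igf2r had a 2633 bp intron region (5.39 and 6.56). Of 475 zinc finger genes 4 had one. Zfp652 and Zbtb16, both higher in control, are given above, and Zfp423 (4.32 and 5.66) and Zbtb7a (2.59 and 4.65) were higher in MMS. None of 45 nuclear receptor genes and none of 1092 olfactory receptor genes had a wide DMR, while 17 and 14 of them had an autosomal DMR of some width.

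**Figure D5:**
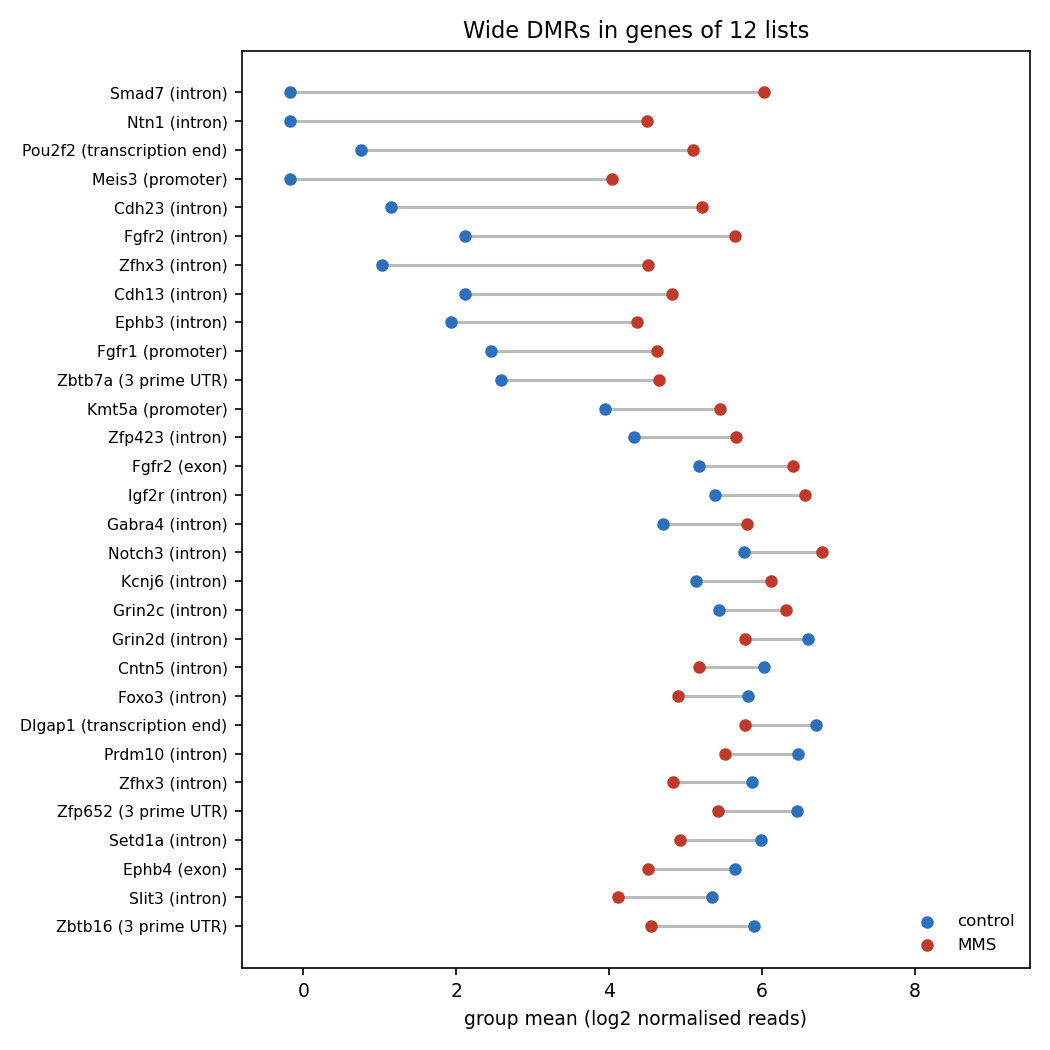
Each row is a wide DMR in a gene of 12 of the 15 lists (calcium and sodium channels are not plotted, and nuclear and olfactory receptors had none), with the feature at its centre, ordered by the difference between the groups. Dots give the control (blue) and MMS (red) group means on a log2 axis of normalised reads, with 19 regions higher in MMS above and 11 higher in control below.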

How the data were processed

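Reads from the Ion Proton were, per the methods of the study, aligned to mm10 with Torrent Suite, broad peaks were called with MACS2 over the inputs, and groups were compared with DiffBind after normalisation to a pooled input per group and subtraction of IgG. The submitters' processing notes name MACS2 2.1 and HOMER 4.8. DiffBind joins overlapping peaks of libraries, so a width is that of a joined region. The log2 values deposited by the authors give normalised reads per region as means of the untreated group (read as control), of the treated group (read as MMS) and of both together. The table also holds the authors' own fold changes, p-values and false discovery rates, which were not used. Neither library values nor depths were analysed here, so no test was made. Intervals around shares and medians (95%, Wilson and binomial) served only to sort the alternatives.

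Members and lists were chosen with earlier results of these data known. Direction came from the group means, and a group counted as at its lowest value within 0.5 of it. Sequence came from GRCm38.p6 and genes from GENCODE (mouse release 21), checked against RefSeq. Each centre took the first match among a promoter window (from 1000 bp before to 100 bp after a start), a transcription end window (from 100 bp before to 1000 bp after), UTRs, exons and introns, and was otherwise intergenic. Repeats are the soft-masked bases of the reference. Copies elsewhere were sought with minimap2 2.31 (preset asm10, at least 100 bp and 95% identity, assembled chromosomes), which skips very frequent words and so can miss copies of abundant repeats. The functions for CpG-rich windows and arrays were tested on simulated sequences. Named regions were the 10 widest, the 5 largest differences in each direction with the lower group off its lowest value, the 3 highest means in each direction, the 5 densest and 3 poorest in CpG, the 5 promoters densest in CpG, up to 6 exon and 3′ UTR regions by width, the 3 on each side of the limit, genes with 2 or more, and up to 5 genes of each list, of which 2 regions are not reported here. Printed windows were moved off UTRs. Python 3.11.15, numpy 2.4.6, pandas 2.3.3, scipy 1.17.1, pysam 0.24.0 and matplotlib 3.10.9 were used.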

Additional observations from a re-analysis of the deposited data

How the results depend on the processing

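Of 104 recomputed values 80 stayed within the 95% interval of the reported one. A lower width limit moved the median difference of regions higher in control to -1.24. A limit of 2000 bp gave median differences of 2.27 and -1.02, 1.56 CpG per 100 bp, 51.6% in introns, 28.1% intergenic and 62.0% on a protein-coding gene. Regions under 50% repeats had control at its lowest value in 22.0%, a protein-coding gene in 58.9% and a median repeat share of 19.1%. With a difference of at least 2, 91.6% were higher in MMS (80.5% of all such autosomal DMRs), the lower group was at its lowest value in 43.7% (control) and 15.8% (MMS), the median differences were 3.55 and -2.52, and medians were 15.8 reads per kb, 1.42 CpG per 100 bp and 27.9% repeats, with 41.3% intergenic and 48.4% on a protein-coding gene. Assignment by any overlap gave 29.4% in introns and 13.4% at promoters, and promoters from 2000 bp upstream to 500 bp downstream held 11.0%. The central 500 bp had 1.40 CpG per 100 bp. Including X and Y, joining neighbours within 10 kb that shared a direction (580 regions), the exact lowest value and its subtraction moved none of the values they applied to beyond the interval, nor did leaving out the 26 arrays or the 22 regions with copies, a pair of alternatives chosen after seeing the data. The intervals treat regions as independent, which neighbours and copies are not, and with 1 mean per group no precision of a single region is known.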

Other observations

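Wide DMRs lay on every autosome, from 16 on chromosomes 13 and 18 to 46 on chromosome 11. Per 100 Mb of sequence they ranged from 13.3 on chromosome 13 to 37.7 on chromosome 11, and the share of a chromosome's DMRs that were wide ranged from 2.76% on chromosome 13 to 6.09% on chromosome 9. The share higher in MMS ran from 41.4% on chromosome 10 to 68.8% on chromosome 18. The median distance from a wide DMR to the nearest other DMR of any width was 38330.5 bp, and in 102 cases it was under 10000 bp, with 63 of these neighbours of the same direction and 39 of the opposite one. These counts were made for wide DMRs only and have no share over all autosomal DMRs beside them. They are thus not read as particular to wide DMRs.

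Wide DMRs lay less than 10000 bp apart in 5 pairs, described because their values stood out. Of these, 3 pairs went in opposite directions. At the 3′ end of Zbtb16, a region with 0.50 in control and 5.53 in MMS lay 638 bp from one with 5.90 and 4.55. In introns of Mbnl2, 5708 bp separated a region with 5.38 and 3.98 from one with 0.75 and 4.98. Between genes, 43042 and 52763 bp from the start of Gli2, a transcription factor of Hedgehog signalling, 7551 bp separated a region with 6.23 and 4.99 from one with 3.25 and 5.02. Both pairs of the same direction were satellite regions of chromosome 9. Under 100000 bp there were 33 pairs, 16 of the same and 17 of opposite direction. Pairs of narrower DMRs were not counted, so no share over all autosomal DMRs stands beside these numbers either.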
